A study of Mus musculus with 24 samples.

Results

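Cdx1, Cdx2 and Cdx4 are the 3 members of the caudal homeobox family in the mouse, and they were taken by symbol from a count table of 35591 genes. They were measured by poly(A) RNA-seq in 24 libraries, from male mouse embryonic stem cells (mESCs) that were differentiated towards neuromesodermal progenitors (NMPs). The cells came from 6 lines derived from separate blastocysts of Castaneus mothers and C57BL/6 Smchd1 del/fl fathers that carried the MMTV-Cre transgene. In this transgene Cre recombinase is driven by the mouse mammary tumour virus promoter. The study used it in another cross to delete Smchd1 in the oocyte, while the fathers here already had a deleted allele. The 3 wt lines were Smchd1[fl/+], so they held a floxed paternal allele, and the 3 het lines were Smchd1[del/+], with the paternal allele deleted. Whether a line inherited the Cre transgene is not given in the sources used here. Each line was sampled at day 0, in serum medium with LIF after culture in 2i medium, and at day 2, in N2B27 medium with basic FGF. It was sampled again at day 2.5 and day 3, after the GSK3 inhibitor CHIR99021 had been added at day 2 to activate Wnt signalling. The comparison of het with wt lines asked whether losing a single zygotic copy of Smchd1, which encodes a chromatin silencing protein, alters this differentiation.

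The caudal genes encode homeodomain transcription factors that bind DNA at AT-rich sites. They are switched on at the posterior end of the embryo, in the epiblast and tailbud that hold NMPs, where Wnt and FGF signals are active, and they in turn act on trunk Hox genes and keep the posterior growth zone going. Cdx2 has further roles in the trophectoderm of the blastocyst and in the intestine, where Cdx1 is also used. Cdx4 is X-linked, so these male lines have a single copy of it, from the Castaneus mother. Cdx2 lies in the ParaHox cluster, beside Pdx1.

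In the GENCODE annotation of GRCm38, Cdx2 (ENSMUSG00000029646) lay at chr5:147300805-147307270 on the minus strand and Cdx4 (ENSMUSG00000031326) at chrX:103321398-103330592 on the plus strand. Each of the 3 genes had 1 annotated transcript of 3 exons, with 1750 exonic bases in Cdx1, 2261 in Cdx2 and 1963 in Cdx4, and 0 other genes overlapped any of them. In all 3 genes exon 2 was 146 bases long and encoded part of the homeodomain. It was identical at 80.8% of positions between Cdx2 and Cdx4, at 78.8% between Cdx1 and Cdx4 and at 76.7% between Cdx1 and Cdx2. The exon 2 sequences of Cdx2 (chr5:147303181-147303326, minus strand) and Cdx4 (chrX:103328009-103328154, plus strand) are shown 5′ to 3′ because they bear on whether reads could be told apart. Capitals mark the bases that are the same in both.
Cdx2 exon 2: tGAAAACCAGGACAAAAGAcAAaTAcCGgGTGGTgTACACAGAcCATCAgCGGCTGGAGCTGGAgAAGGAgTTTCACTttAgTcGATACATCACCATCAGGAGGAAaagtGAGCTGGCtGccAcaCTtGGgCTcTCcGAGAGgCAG
Cdx4 exon 2: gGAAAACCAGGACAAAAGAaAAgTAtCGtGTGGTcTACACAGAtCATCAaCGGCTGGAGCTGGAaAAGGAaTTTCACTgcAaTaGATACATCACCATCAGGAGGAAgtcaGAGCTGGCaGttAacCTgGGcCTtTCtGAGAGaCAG
The longest run of bases shared between the transcripts of any 2 of the genes was 22, between Cdx2 and Cdx4. Of the 75-base stretches of each transcript, as long as the reads, 100% occurred in no other gene. These stretches are of the C57BL/6 reference, and how many reads of Castaneus alleles were lost in alignment was not measured. Levels of the 3 genes were compared only after division by exonic length.

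The sequence upstream of a start was taken for Cdx2 and Cdx4 from the RefSeq promoter table (GRCm38.p6), to show the sequence beside the starts of 2 genes that rose at day 2.5. The bases before exon 1 in both annotations are printed, chr5:147307271-147307499 on the minus strand for Cdx2 and chrX:103321148-103321397 on the plus strand for Cdx4. Capitals mark matches to a searched motif.
Cdx2 upstream: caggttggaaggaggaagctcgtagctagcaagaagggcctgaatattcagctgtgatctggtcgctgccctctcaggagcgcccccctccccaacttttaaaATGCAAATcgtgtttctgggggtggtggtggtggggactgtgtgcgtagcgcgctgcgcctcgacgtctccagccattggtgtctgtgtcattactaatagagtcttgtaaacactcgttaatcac
Cdx4 upstream: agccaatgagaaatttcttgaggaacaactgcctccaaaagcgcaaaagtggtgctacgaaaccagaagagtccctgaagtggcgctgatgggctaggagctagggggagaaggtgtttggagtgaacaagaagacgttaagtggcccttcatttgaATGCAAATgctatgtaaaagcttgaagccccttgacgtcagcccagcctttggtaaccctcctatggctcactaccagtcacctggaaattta
On either strand of the 300-base RefSeq windows, neither gene held the TCF/LEF core CTTTGA (present in 16% of 32851 promoter windows), the CDX core TTTATG (11.9%) or the nuclear receptor motif AGGTCA (16.3%). Each held 1 match to the POU octamer ATGCAAAT, a motif that was added after these windows were read and that 1.74% of all windows hold. It began 147 bases before the RefSeq start of Cdx2 and 93 bases before that of Cdx4. The window of Cdx2 had 18 CpG dinucleotides and that of Cdx4 had 8, beside a median of 7.

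Before Wnt activation the Cdx genes were at low levels, and the 12 libraries of day 0 and day 2 gave 0 to 55 counts of each. Library totals ran from 7.10 to 20.8 M counts with a median of 17.9 M. A library with 0 counts of a gene was given an upper limit of 3 counts, or 0.137 to 0.412 CPM (counts scaled to the library total). Limits of this kind cover counting error only. Smchd1 itself stood at 0.668, 0.601, 0.661 and 0.547 of the wt mean in het at day 0, 2, 2.5 and 3, with no overlap between the genotypes, and was called lower at day 2 and day 3 (edgeR adjusted p 0.00824 and 0.0307) but not at day 0 or day 2.5 (0.1 and 0.907). Its call was lost at day 2 without het line 3 and at day 3 without wt line 2 or het line 3, where 0 genes were called.

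At day 0 the Cdx1 counts were 20, 22 and 10 in wt lines 1, 2 and 3 and 32, 0 and 21 in het lines 1, 2 and 3. Cdx2 had 45, 20 and 13 counts in wt and 20, 18 and 16 in het. Cdx4 had 49, 46 and 22 counts in wt and 32, 13 and 41 in het. The genotypes overlapped for each gene, and het line 2 was the lowest library for both Cdx1 and Cdx4. Its 0 counts of Cdx1 allow a level of up to 0.191 CPM. As mean CPM ± SD (n = 3 lines, as for every group mean here), Cdx1 was at 1.09 ± 0.322 in wt and 1.06 ± 0.942 in het, Cdx2 at 1.64 ± 1.01 and 1.11 ± 0.0490, and Cdx4 at 2.46 ± 0.770 and 1.78 ± 0.936.

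At day 2, after FGF alone, Cdx4 was not detected in 3 of 6 libraries. Its counts were 0, 13 and 0 in wt and 27, 11 and 0 in het, and in the libraries with none 3 counts would be 0.147 to 0.195 CPM. Cdx1 had 14, 12 and 18 counts in wt and 15, 5 and 23 in het. Cdx2 had 32, 31 and 26 counts in wt and 32, 55 and 31 in het. In wt lines Cdx4 fell between day 0 and day 2, with a log2 fold change of -3.40 (adjusted p 0.0240, SE 1.12, edgeR's quasi-likelihood test with Benjamini-Hochberg adjustment over all genes tested, called under 0.05). In this step 22.4% of genes tested were called higher and 21.9% lower. Cdx4 passed the filter on low counts only through day 0, where it was higher, so a difference was built into its selection. The call for Cdx4 was lost when wt line 1 (adjusted p 0.0693) or wt line 3 (0.108) was left out. Without wt line 2, which held all 13 Cdx4 counts of wt at day 2, both remaining day 2 libraries were at 0 and the fitted change was -8.35, which is no bound. Cdx1 and Cdx2 were not called in wt over this step, with log2 fold changes of -0.55 (adjusted p 0.582, SE 0.745) and -0.12 (adjusted p 0.897, SE 0.644).

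In het lines 0 of the 3 genes were called between day 0 and day 2, where 28% of genes were called higher and 28.1% lower. By DESeq2 the count was also 0, and Cdx2 alone had an unadjusted p under 0.05. Every het library had more Cdx2 CPM at day 2 (1.94, 3.30 and 2.01) than any het library at day 0. The fitted change was 1.13 on the log2 scale (95% interval 0.069 to 2.20, p 0.0384, adjusted p 0.0659). In one fit of all 24 libraries this step was called, with an adjusted p of 0.0116. The log2 fold change of Cdx4 was -1.18 (adjusted p 0.254, SE 0.853), and it was -2.36 without het line 1 and -0.19 without het line 3.

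Between day 2 and day 2.5, after CHIR99021 was added, all 3 genes rose in both genotypes, by 59.0-fold to 307-fold. At day 2.5 Cdx1 stood at 305, 220.4 and 159 CPM in wt lines 1, 2 and 3 and at 169, 175 and 231 CPM in het lines 1, 2 and 3. Cdx2 stood at 173, 143 and 107 CPM in wt and at 143, 128 and 161 CPM in het. Cdx4 stood at 51.5, 42.7 and 30.8 CPM in wt and at 47.7, 41.6 and 59.0 CPM in het. Every day 2.5 library lay above every day 2 library for each gene. Wt line 1 was the highest wt library and wt line 3 the lowest for all 3 genes, and het line 3 was the highest het library for all 3. These are bulk libraries, in which a larger share of expressing cells and more RNA per cell cannot be told apart.

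All 3 genes were called in wt, where 14.6% of genes were called higher and 14.5% lower. Cdx4, unlike Cdx1 and Cdx2, passed the filter on low counts only through day 2.5, so a difference was built into its selection. Cdx1 rose by 8.26 on the log2 scale (adjusted p 9.07e-10, SE 0.293), Cdx2 by 6.56 (adjusted p 9.07e-10, SE 0.232) and Cdx4 by 7.52 (adjusted p 2.60e-06, SE 0.591). As folds these were 307 for Cdx1 (95% interval 198 to 475), 94.1 for Cdx2 (66.5 to 133) and 184 for Cdx4 (76.1 to 444). Ranked by fold among the 15540 genes tested, Cdx1 was at place 12, Cdx4 at place 21 and Cdx2 at place 36. The fold of Cdx4 rests on the 13 counts of wt line 2 at day 2, without which its log2 value was 12.6 against 2 libraries at 0, which is no bound.

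In het all 3 were called as well, where 21.8% of genes were called higher and 22.9% lower. Here both Cdx1 and Cdx4 passed the filter on low counts only through day 2.5, so a difference was built into their selection. Cdx1 rose by 7.74 on the log2 scale (adjusted p 9.67e-11, SE 0.249), Cdx2 by 5.88 (adjusted p 3.44e-11, SE 0.172) and Cdx4 by 5.97 (adjusted p 8.82e-08, SE 0.406). The fold was 213 for Cdx1 (148 to 309), 59.0 for Cdx2 (45.7 to 76.2) and 62.7 for Cdx4 (34.3 to 115), at places 28, 64 and 61 of 15577. The log2 fold changes of Cdx4 without het line 1 and without het line 3 were 7.19 and 5.28.

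**Figure D1:**
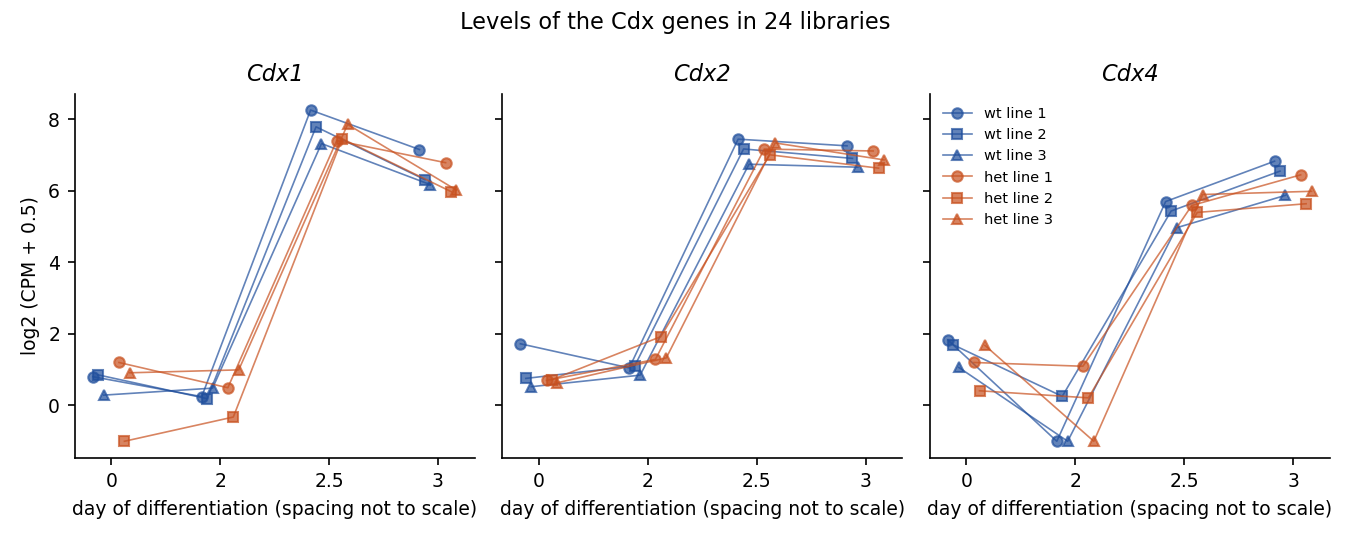
Level of each Cdx gene as log2 (CPM + 0.5) against the day of differentiation, with 1 panel per gene, blue for wt and orange for het, a marker shape per line and a line joining the 4 libraries of each cell line. In each panel the day 0 and day 2 points sit near the bottom and the day 2.5 and day 3 points near the top. From day 2.5 to day 3 the Cdx1 points move down in 6 of 6 lines and the Cdx4 points move up in 6 of 6. The Cdx2 points also move down in 6 of 6 lines, by less than those of Cdx1.

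In the last step, from day 2.5 to day 3 under continued CHIR99021, Cdx1 fell in both genotypes, Cdx4 rose in wt, and Cdx2 was called in neither. Cdx1 stood at 142, 78.8 and 71.6 CPM in wt lines 1, 2 and 3 at day 3 and at 109.8, 62.5 and 64.3 CPM in het. Cdx2 stood at 152, 119 and 101 CPM in wt and at 138, 98.7 and 116 CPM in het. Cdx4 stood at 113, 93.1 and 58.1 CPM in wt and at 86.6, 49.3 and 62.8 CPM in het. Line 1 was now the highest library of both genotypes for each gene. Every day 3 library was below every day 2.5 library of its genotype for Cdx1, and every wt day 3 library was above every wt day 2.5 library for Cdx4. Within lines Cdx2 was lower at day 3 than at day 2.5 in every line, with changes in log2 CPM between -0.052 and -0.474.

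In wt, where 8.99% of genes were called higher and 10.1% lower, Cdx1 fell by 1.24 on the log2 scale (adjusted p 0.0115, SE 0.270) and Cdx4 rose by 1.07 (adjusted p 0.0129, SE 0.241). Cdx2 had a log2 fold change of -0.19 (adjusted p 0.505, SE 0.186). Both calls were lost without wt line 2, whose day 2.5 library was the shallowest of all at 7.10 M counts. The values were then -1.14 for Cdx1 (adjusted p 0.160) and 1.04 for Cdx4 (adjusted p 0.163), in a fit that called 29 genes instead of 2923. With the line as a replicate block, the paired fit called 4687 genes, Cdx1 and Cdx4 among them.

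In het, where 13.8% of genes were called higher and 16% lower, Cdx1 fell by 1.32 on the log2 scale (adjusted p 0.000641, SE 0.195). Cdx2 had a log2 fold change of -0.33 (adjusted p 0.0583, SE 0.121). With the line as a replicate block, the paired fit, this was -0.34 and was called (adjusted p 0.0225), as it was without het line 1 (-0.47, adjusted p 0.0302) and without the filter on low counts (-0.30, adjusted p 0.0177). Cdx4 had a log2 fold change of 0.39 (adjusted p 0.130, SE 0.181), and it was called without the filter on low counts (0.41, adjusted p 0.00291). It was 0.12 without het line 1 and 0.59 without het line 3, neither of them called.

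**Figure D2:**
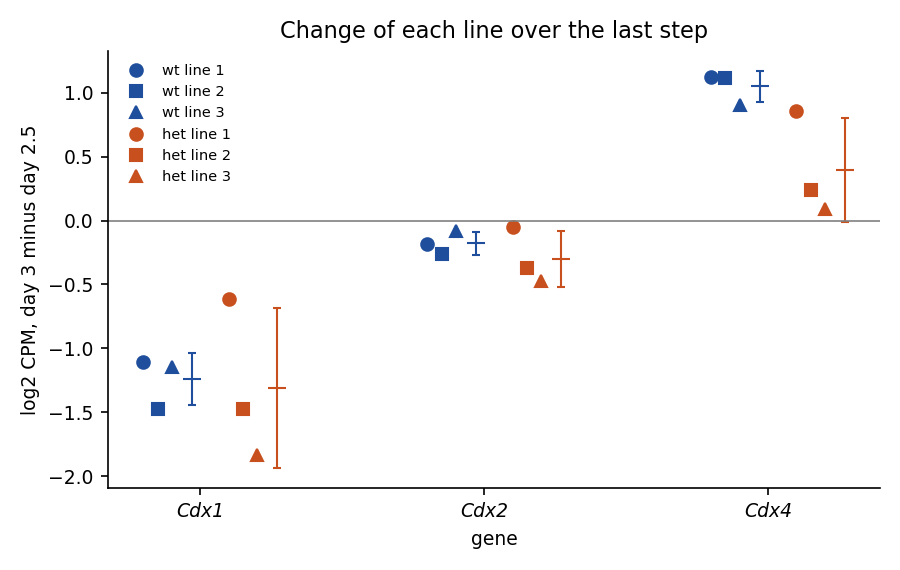
Change of each line in log2 (CPM + 0.5) from day 2.5 to day 3 for the 3 genes, blue for wt and orange for het, a marker shape per line, with the mean and SD of 3 lines beside the points. The Cdx4 points of the wt lines lie between 0.91 and 1.13 and those of the het lines between 0.089 and 0.86, with no overlap, while the genotypes overlap for Cdx1 and Cdx2.

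Line by line, Cdx4 moved up by 1.13, 1.11 and 0.91 on the log2 CPM scale in wt lines 1, 2 and 3 from day 2.5 to day 3, and by 0.86, 0.24 and 0.089 in het lines 1, 2 and 3. All 6 lines moved the same way, and the het lines moved less than any wt line. Over all genes the changes of the lines did not overlap between the genotypes for 11.2% in this step and 10.9% in the step before, beside 1 of the 6 Cdx cases. The means were 1.05 ± 0.124 in wt and 0.40 ± 0.405 in het (exact permutation test, two-sided, p = 0.1, the smallest that 3 lines against 3 allow; 0.6 after Benjamini-Hochberg adjustment over 6 such tests). The fitted genotype by day interaction of Cdx4 was -0.67 (SE 0.338, p 0.0638, adjusted p 0.999), so the difference in its last step was not called. For Cdx1 and Cdx2 the interaction over this step was -0.06 (95% interval -0.86 to 0.73) and -0.12 (-0.64 to 0.40). For the step from day 2 to day 2.5 the interaction was -0.51 for Cdx1 (-1.64 to 0.61), -0.66 for Cdx2 (-1.32 to -0.0029, p 0.0491, adjusted p 0.952) and -1.54 for Cdx4 (-3.60 to 0.51). The last was -6.60 without wt line 2, -2.24 without het line 3, -0.74 without wt line 1 and -0.34 without het line 1. The quasi-likelihood test called 0 genes of the whole table in either interaction, 0% of 16569 and 0% of 16486, with 850 and 635 at an unadjusted p under 0.05. DESeq2 also called 0 in both.

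The genotypes were then compared on each day. At day 0 and day 2.5 edgeR called 0% of genes tested, at day 2 it called 0.551% and at day 3 it called 0.00638%, and 0 of the Cdx genes were among them on any day. Where it called 0 genes, 1649 at day 0 and 822 at day 2.5 had an unadjusted p under 0.05, and DESeq2 called 84 and 3. None of the 3 had an unadjusted p under 0.05 on any day, and DESeq2 called 0 of them at day 2.5 and day 3. At day 0 and day 2 DESeq2 gave them no adjusted p. The narrowest intervals were those of day 2.5 and day 3, where counts were high. At day 2.5 the log2 fold change of het over wt was -0.25 for Cdx1 (95% interval -0.68 to 0.18, adjusted p 0.915), 0.03 for Cdx2 (-0.31 to 0.38, adjusted p 0.986) and 0.25 for Cdx4 (-0.15 to 0.66, adjusted p 0.909). At day 3 it was -0.32 for Cdx1 (-0.89 to 0.24, adjusted p 0.755), -0.09 for Cdx2 (-0.42 to 0.23, adjusted p 0.889) and -0.43 for Cdx4 (-0.93 to 0.076, p 0.0886, adjusted p 0.622). In folds, the Cdx4 interval at day 3 ran from 0.525 to 1.05 of the wt level, an interval that includes 1. Without wt line 1 the sign for Cdx1 turned on both days (0.01 and 0.05). That for Cdx2 turned at day 2.5 without wt line 3 (-0.14) or het line 3 (-0.07) and at day 3 without wt line 1 (0.08) or het line 2 (0.0095).

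At day 0 and day 2 the counts were low and the intervals wide. At day 0 the log2 fold change was -0.07 for Cdx1 (-1.97 to 1.84), -0.60 for Cdx2 (-1.85 to 0.64) and -0.50 for Cdx4 (-1.58 to 0.57). Leaving out 1 line turned the sign for Cdx1 (up to 0.51, without het line 2) and for Cdx2 (0.045, without wt line 1). At day 2 it was 0.26 for Cdx1 (-1.46 to 1.99), 0.67 for Cdx2 (-0.46 to 1.80) and 1.71 for Cdx4 (-1.24 to 4.67). The Cdx1 value was -0.32 without het line 3. The Cdx4 value was 0.53 without het line 1 and 6.77 without wt line 2, where the remaining wt libraries were at 0. Cdx2 at day 2 had 1.57, 1.65 and 1.30 CPM in wt and 1.94, 3.30 and 2.01 CPM in het (adjusted p 0.735). This was 1 of 12 cases in which the genotypes did not overlap. The genotypes did not overlap in 17%, 15.8%, 11.6% and 14% of genes on day 0, 2, 2.5 and 3 in turn, so 1 of 12 is no more than the background. On the same day 5 of 7 tested markers of primitive and definitive endoderm were lower in het, where 0.551% of all genes were called, their summed level being 336 to 596 CPM in wt and 195 to 264 CPM in het, and their part in the Cdx2 values was not tested. These 5 calls did not all stand without het line 1, 2 or 3, where 1, 3 and 0 genes of the whole table were called.

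**Figure D3:**
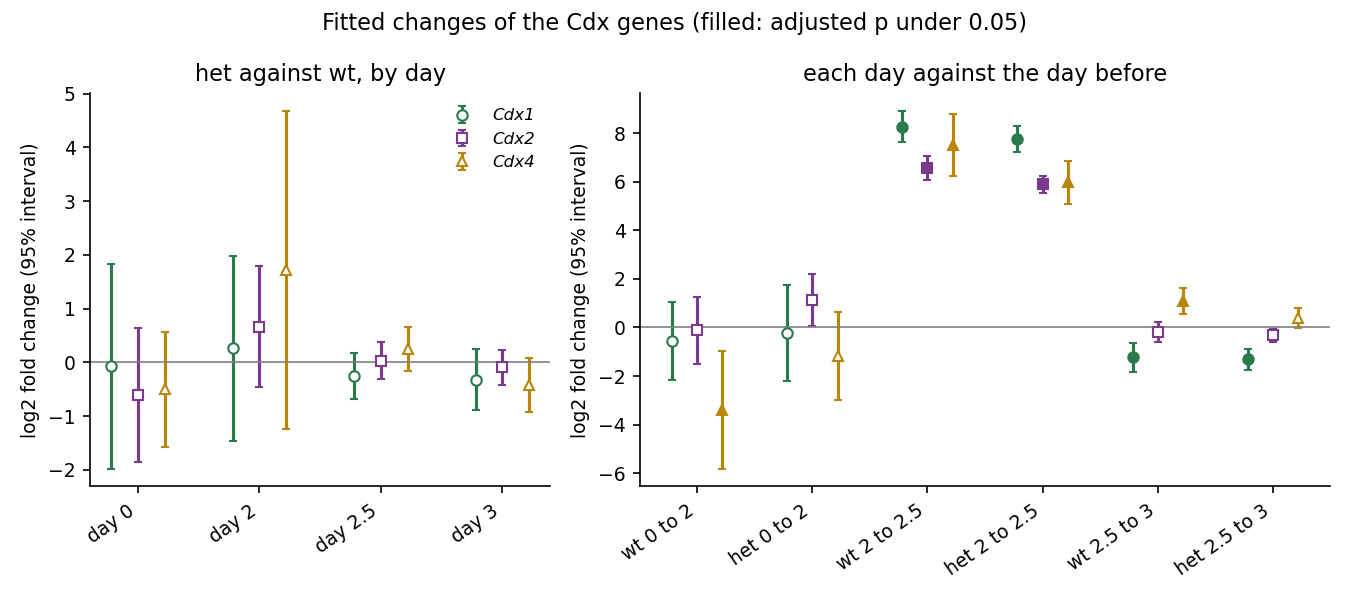
Fitted log2 fold changes with 95% intervals for Cdx1 (circles), Cdx2 (squares) and Cdx4 (triangles), het against wt on each day at the left and each day against the day before within a genotype at the right. Symbols are filled where the adjusted p was under 0.05. All 12 symbols at the left are open, while the 6 of day 2 to day 2.5 are filled and lie between 5.88 and 8.26.

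Divided by exonic length, the order within the family could be read in each library. At day 2.5 Cdx1 was above Cdx2 in 6 of 6 libraries, by 1.53 to 2.27-fold, and Cdx2 was above Cdx4 in 6 of 6, by 2.37 to 3.01-fold. By day 3 Cdx1 and Cdx2 were no longer apart, Cdx1 being higher in 2 of 6 libraries with ratios of 0.717 to 1.20. Cdx4 was then still below Cdx2 in 6 of 6 libraries, by 1.11 to 1.74-fold, and below Cdx1 in 5 of 6. All Cdx4 RNA is of the Castaneus allele, and the part of alignment loss in this order was not tested. The summed level of the family, in CPM per kilobase, was 2.61 ± 0.937 in wt and 2.00 ± 0.933 in het at day 0, and 1.21 ± 0.209 and 1.97 ± 0.236 at day 2. It reached 214 ± 61.8 and 198 ± 30.5 at day 2.5 and was 155 ± 46.3 and 131 ± 33.0 at day 3.

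The share of a gene in that sum does not depend on library scaling. At day 2.5 Cdx1 made up 62.9%, 59.7% and 59.2% of the sum in wt lines 1, 2 and 3 and 52.4%, 56.2% and 56.6% in het. Cdx4 made up 9.46%, 10.3% and 10.2% in wt and 13.2%, 11.9% and 12.9% in het. So at day 2.5 each het line had a smaller share of Cdx1 and a larger share of Cdx4 than any wt line. The shares of a library sum to a whole, so these separations are not independent. No background of such separations was measured, and by level the genotypes overlapped for both genes. The means were 60.6 ± 2.02% and 55.1 ± 2.29% for Cdx1 and 9.99 ± 0.463% and 12.7 ± 0.664% for Cdx4 (exact permutation tests, two-sided, p = 0.1 each, the smallest possible, adjusted p 0.3 over 6 tests). For Cdx2 they were 29.4 ± 1.57% and 32.3 ± 1.94% (exact p = 0.2, adjusted p 0.36).

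At day 3 the genotypes overlapped in the share of each gene. Cdx1 made up 35.3 ± 4.17% in wt and 34.1 ± 3.39% in het, Cdx2 35.9 ± 3.01% and 40.3 ± 3.45%, and Cdx4 28.8 ± 3.53% and 25.7 ± 1.43% (exact permutation p = 0.7, 0.3 and 0.3, adjusted p 0.7, 0.36 and 0.36). In 6 of 6 lines the share of Cdx1 was lower and that of Cdx4 higher than at day 2.5.

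**Figure D4:**
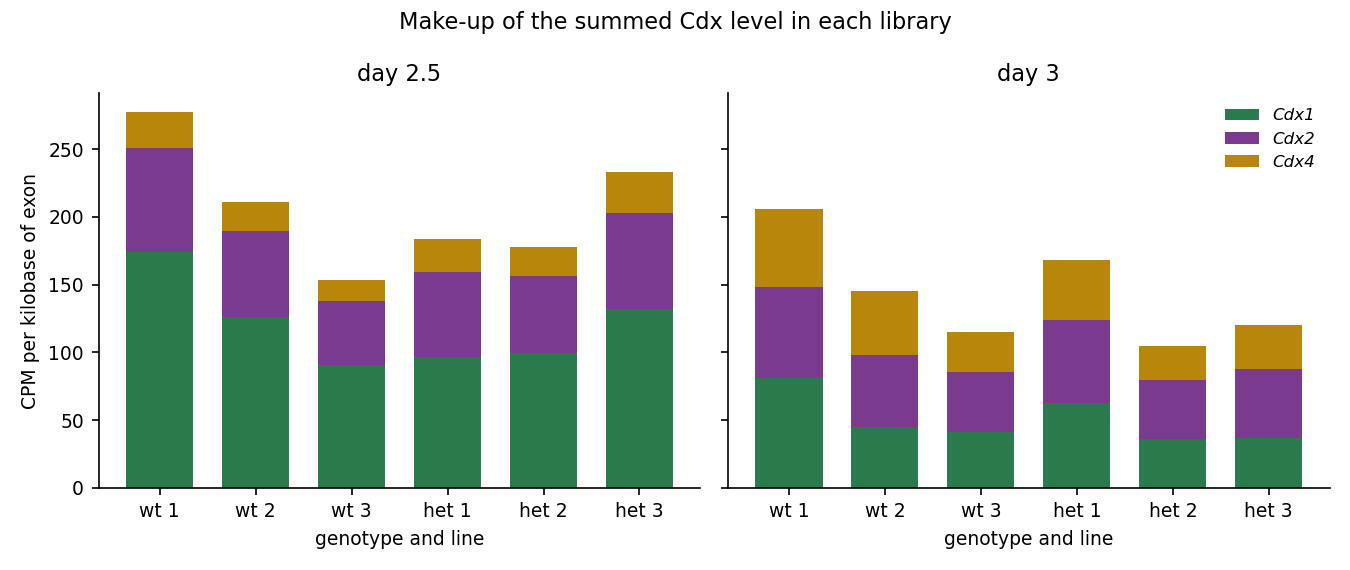
Level of Cdx1, Cdx2 and Cdx4 in CPM per kilobase of exon, stacked for each of the 6 lines at day 2.5 and at day 3. At day 2.5 the Cdx1 part is the largest of each bar, 52.4% to 62.9%, and at day 3 the bars are lower on average and their 3 parts more alike.

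The log2 deviation of a library from its group mean was compared between the 3 genes. At day 2.5 and day 3 it had the same sign for Cdx1 and Cdx2 in 11 of 12 libraries, for Cdx2 and Cdx4 in 11 of 12 and for Cdx1 and Cdx4 in 10 of 12. At day 0 and day 2, where counts were low, these were 3, 7 and 8 of 12. Over all 24 libraries, which share the large step at day 2.5, Pearson's r of log2 CPM was 0.980 for Cdx1 and Cdx2, 0.949 for Cdx2 and Cdx4 and 0.939 for Cdx1 and Cdx4.

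Among 17540 other genes, the 5 with the highest r to each member over the 24 libraries were listed as a description, in which the shared step at day 2.5 weighs heavily. For Cdx1 they were Sp5, a zinc finger factor induced by Wnt signals (r = 0.989), the antisense transcript Evx1os, whose reads can be told from those of Evx1 only where strand was used (0.985), the Wnt feedback gene Axin2 (0.982), the ligand gene Wnt5b (0.980) and the receptor gene Tnfrsf19 (0.979). For Cdx2 they were Wnt5b (0.991), Nkx1-2, a homeobox gene of the caudal epiblast (0.990), Fbxl14 (0.988), the forkhead gene Foxb1 (0.985) and Grsf1 (0.984). For Cdx4 they were the Wnt receptor gene Fzd10 (0.967), Gm45889 (0.959), T, which encodes Brachyury (0.959), Arhgef26 (0.958) and Grsf1 (0.958). After the group means were taken off, r was lower for all 15, from 0.0834 for T and Cdx4 to 0.713 for Fzd10 and Cdx4. Sp5 and Axin2, like Cdx1, had lower means at day 3 than at day 2.5, Sp5 going from 46.9 ± 10.3 to 22.0 ± 7.33 CPM in wt. Fzd10 and T, listed for Cdx4, also had lower means at day 3, Fzd10 going from 95.9 ± 34.2 to 59.1 ± 15.2 CPM and T from 300.3 ± 130 to 193 ± 40.7 CPM in wt. Of the 13 genes listed, 9 had lower means at day 3 in both genotypes and 3 had higher ones, Foxb1, Grsf1 and Gm45889, with Gm45889 going from 15.2 ± 4.27 to 69.9 ± 25.7 CPM in wt and from 26.2 ± 8.38 to 50.2 ± 20.3 CPM in het.

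The genes that surround the Cdx genes in the posterior programme were followed on 3 lists. A gene that passes the filter on low counts only through the day on which it is high had to differ, so the step from day 2 to day 2.5 was counted over genes that passed on each of the 2 days alone. Of 17 caudal epiblast and NMP genes, 9 did so, and 7 of them rose and 1 fell in wt and 8 rose and 1 fell in het, with median log2 fold changes of 3.09 and 3.35. Over all genes passing on both days 14.4% and 21.5% were called higher and 14.8% and 23.5% lower in wt and het. T rose by 9.40 on the log2 scale in wt (adjusted p 1.07e-07, SE 0.520) and Nkx1-2 rose by 7.56 (adjusted p 1.11e-07, SE 0.423). Neither was among the 9 in wt, as their day 2 levels were 0.454 ± 0.551 and 1.08 ± 1.1 CPM. A difference was thus built into the selection of T and Nkx1-2. From day 2.5 to day 3, 7 of 15 passing on both days rose and 4 fell in wt, and 7 rose and 2 fell in het, where 8.97% and 14% of all such genes were called higher and 10.2% and 16.3% lower. Nkx1-2 was among those that fell in wt, by 0.89 on the log2 scale (adjusted p 0.0104, SE 0.191), as Cdx1 did.

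Of 10 canonical Wnt feedback genes, which share Sp5 with the caudal list, 7 passed on both day 2 and day 2.5, and 5 of them rose in wt and 6 in het, with 0 falling, beside the 14.4% and 21.5% of all genes. Axin2, which encodes a scaffold of the beta-catenin destruction complex, rose by 4.31 on the log2 scale in wt (adjusted p 2.36e-07, SE 0.266) and by 3.98 in het (adjusted p 1.39e-10, SE 0.141). All 10 passed on both day 2.5 and day 3, and over this step 3 fell and 0 rose in wt and 6 fell and 1 rose in het, beside 10.2% and 16.3% of all genes called lower, with median log2 fold changes of -0.58 and -0.53 beside 0.0029 and -0.018 over all genes. Cdx1 fell over the same step in both genotypes. In het Axin2 fell by 0.90 (adjusted p 0.0011, SE 0.147), and in wt its log2 fold change was -0.75 (adjusted p 0.0735, SE 0.269).

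Of 15 trunk Hox genes of paralogue groups 5 to 9, 3 passed the filter at both day 2 and day 2.5, too few to describe the list over that step. From day 2.5 to day 3, 14 passed on both days, and 8 rose in wt and 7 in het, with 0 falling, beside 8.97% and 14% of all genes called higher. Without wt line 2 the wt fit of this step called 29 genes of the whole table, not 2923, and the counts of the 3 lists were not redone there. Hoxb9 went from 9.31 ± 2.31 to 41.0 ± 4.56 CPM in wt and from 10.5 ± 2.60 to 25.6 ± 3.88 CPM in het over that last step, a log2 rise of 2.13 (adjusted p 0.000316, SE 0.201) and 1.24 (adjusted p 0.000684, SE 0.186). Over the same step Cdx4 had a log2 fold change of 1.07 in wt, which was called, and of 0.39 in het, which was not. Het against wt, 0 trunk Hox genes were called of 0, 3, 14 and 14 tested at day 0, 2, 2.5 and 3, and 0 Wnt feedback genes of 7, 7, 10 and 10. These days had 0%, 0.551%, 0% and 0.00638% of all genes called, so the counts say little of the lists. At day 2, 1 of 9 tested caudal genes was lower in het, Cyp26a1, which degrades retinoic acid and is named after its value was seen (-1.51, SE 0.216, adjusted p 0.00971). This call was lost without het line 3, where 0 genes of the whole table were called. The other ParaHox genes, Gsx1, Gsx2 and Pdx1, failed the filter on low counts in every comparison, and their summed level was at most 1.17 CPM in any library.

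The labelled course of differentiation was checked on marker lists. All 7 naive pluripotency markers fell from day 0 to day 2 in both genotypes, where 21.9% of all genes in wt and 28.1% in het were called lower, Esrrb by 4.34 on the log2 scale in wt (adjusted p 1.03e-10, SE 0.139), and all 4 epiblast-like markers fell from day 2 to day 2.5 in both. The Cdx genes therefore rose after the naive markers had fallen. Markers of other tissues were then compared over the step from day 2 to day 2.5, in which 14.6% of all genes were called higher and 14.5% lower in wt, and 21.8% and 22.9% in het. Trophoblast and intestine are tissues that use Cdx2. The summed level of 9 trophoblast markers was 51.8 to 88.6 CPM at day 2 and 48.9 to 106 CPM at day 2.5, with 0 of 7 tested rising and 1 falling in wt (Gata3) and 2 of 8 rising and 0 falling in het (Tpbpa and Hand1). Tpbpa, Krt7 and Plet1 were the highest of them, with means of 23.0, 17.9 and 15.8 CPM over all 24 libraries, while Elf5 was at or below 0.575 CPM at day 2.5. The summed level of 8 intestinal markers was 11.4 to 17.6 CPM at day 2 and 8.94 to 17.1 CPM at day 2.5, and 0 of 3 tested rose in wt and 1 of 5, Hnf4a, in het. Gpa33 was the highest of them, with a mean of 14.9 CPM over all libraries, while Cdh17 and Muc2 had 0 counts at day 2.5. Genes named here that are not among the 3 highest of their list were named after their values were seen. Endoderm markers were present throughout, at 306 to 944 CPM in wt and 337 to 549 CPM in het at day 2.5, with 0 of 7 tested rising from day 2 in wt and 6 of 7 in het. The genotype by day interaction over this step was called for 0 of 8 tested, beside 0% of all genes, so the genotypes were not told apart. The part of endoderm markers in the Cdx rise of the het lines was not tested. Blood markers summed to 40.4 to 47.4 CPM in wt and 38.9 to 39.5 CPM in het at day 2.5, and of 5 tested, 1 rose (Lmo2) and 2 fell (Kdr and Etv2) in wt, while 2 rose (Lmo2 and Runx1) and 1 fell (Etv2) in het.

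Cdx1 (ENSMUSG00000024619) lay on chromosome 18 at 61018862 to 61036199 of GRCm38, on the minus strand. The nearest protein-coding neighbours of the Cdx genes were followed as well. At day 2.5 Pdgfrb, 8950 bases from Cdx1, was at 7.80 ± 2.17 CPM in wt and 7.96 ± 0.402 in het, and Slc6a7, 4639 bases from Cdx1 on its other side, was at 3.15 ± 0.0351 and 3.21 ± 0.934 CPM. Beside Cdx2, Urad, at a gap of 7713 bases, was at 0.444 ± 0.188 and 0.663 ± 0.507 CPM, and Pdx1 at 0.114 ± 0.118 and 0.348 ± 0.172 CPM. Beside Cdx4, Chic1, at a gap of 25883 bases, was at 21.2 ± 1.52 and 30.0 ± 3.13 CPM and Nap1l2 at 2.38 ± 1.32 and 3.97 ± 0.968 CPM. At day 2 Pdgfrb had been at 2.47 ± 0.280 and 2.79 ± 0.607 CPM, and it rose to day 2.5 by 1.67 on the log2 scale in wt (adjusted p 0.00247, SE 0.332) and by 1.51 in het (adjusted p 0.000489, SE 0.273). Slc6a7 also rose, from day 2 libraries with at most 15 counts, at 0.489 ± 0.243 and 0.0809 ± 0.140 CPM (adjusted p 0.00373 and 0.000259). In both genotypes Slc6a7 passed the filter on low counts only through day 2.5, so a difference was built into its selection. Urad had 0 counts in all 6 libraries of day 2 and failed the filter, as Pdx1 did. Chic1 had been at 25.8 ± 5.36 and 37.6 ± 12.8 CPM at day 2 (adjusted p 0.316 and 0.173) and Nap1l2 at 5.54 ± 1.30 and 6.20 ± 0.558 CPM (adjusted p 0.0575 and 0.0747).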

How the data were processed

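Poly(A) RNA of 24 libraries was sequenced by the authors as single-end reads. Per the labels and the methods of the study, reads were trimmed with Trim Galore 0.4.4, aligned with HISAT2 2.0.5 to GRCm38.p6 and quantified per gene in SeqMonk. The deposited table used here holds raw counts. A deposited table of log2 RPKM values by the authors, which holds Cdx1 and Cdx2, was used only to compare its implied lengths (medians of 1819 and 2350 bases) with the annotated ones. The 8 columns of group means were not used. Libraries were prepared with a stranded or a non-stranded kit, and which kit a library had is not given in the sources used here.

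Tests used edgeR 4.0.16 (limma 3.58.1) in R 4.3.3, with TMM factors, filterByExpr (minimum count 10), the quasi-likelihood test and Benjamini-Hochberg adjustment over all genes tested, called under 0.05. CPM values use TMM factors over all 24 libraries, and log2 CPM a pseudocount of 0.5 CPM. Totals were 7.10 to 20.8 M counts, and 0 of 276 library pairs were identical. The 95% intervals are those of the fit. The line is the replicate, with 3 per genotype and 4 libraries each. Line numbers pair the days within a genotype because they name the same line (correlation of residuals -0.0682 to 0.315), but wt and het lines that share a number are different lines (-0.112 to 0.148). The members and lists were chosen with earlier results of these data known.

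Named genes were the members, Smchd1, up to 3 genes of each list with the highest mean CPM, the 5 genes most correlated with each member, and the nearest protein-coding neighbours. Cyp26a1, Gata3, Elf5, Hand1, Cdh17, Muc2 and Etv2 were named after their values were seen. Gene models came from GENCODE vM21 and promoters from RefSeq. Alternatives were other scalings, no filter beyond 1 count, DESeq2 1.42.0, one fit of all 24 libraries, the line as a replicate block, other pseudocounts (0.1 and 2 CPM) and lengths, and leaving out each line. The quasi-likelihood test of a single step, wt from day 2 to day 2.5, was tried on simulated counts with the same dispersion for every gene. The other procedures were not simulated. Sequences and figures came from Python 3.11.15 with matplotlib 3.10.9.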

Additional observations from a re-analysis of the deposited data

How the results depend on the processing

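Of 468 values of the 3 genes under other settings, 441 kept their direction and their side of the threshold or, for shares and line by line changes, moved by less than 1 SD between lines. Of the values fitted across all genes 18 changed sign, 4 lost a call and 5 gained 1, and 0 of the changes of sign concerned a called value. The het minus wt difference also crossed 0 for the share of Cdx1 at day 3 (-1.25 percentage points, up to 0.769), for the line by line change of Cdx4 from day 2 to day 2.5 (-0.42, up to 0.091) and for that of Cdx1 from day 2.5 to day 3 (-0.07, up to 0.20). All 6 rises from day 2 to day 2.5 were called under every setting, with log2 values of 5.28 to 12.6. In the main fits Cdx4 in both genotypes and Cdx1 in het passed the filter on low counts only through day 2.5. Het against wt was called in 0 settings for any of the 3 genes. The causes of the changes below were not tested.

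Leaving out each line in turn gave log2 ranges for het against wt of -0.69 to 0.51 for Cdx1 and -0.89 to 0.045 for Cdx2 and -0.93 to -0.17 for Cdx4 at day 0, and of -0.32 to 0.67 for Cdx1, 0.38 to 0.81 for Cdx2 and 0.53 to 6.77 for Cdx4 at day 2. At day 2.5 they were -0.45 to 0.013 for Cdx1 and -0.14 to 0.21 for Cdx2 and 0.067 to 0.44 for Cdx4, and at day 3 -0.62 to 0.050, -0.23 to 0.079 and -0.66 to -0.21. From day 0 to day 2 they were -0.38 to 0.48 for Cdx2 and -8.35 to -2.63 for Cdx4 in wt and -0.58 to 0.38 for Cdx1 and -2.36 to -0.19 for Cdx4 in het. From day 2.5 to day 3 they were -1.33 to -1.14 for Cdx1 and 1.04 to 1.11 for Cdx4 in wt, -0.47 to -0.21 for Cdx2 and 0.12 to 0.59 for Cdx4 in het, and -0.46 to 0.23, -0.25 to -0.015 and -0.93 to -0.48 for the interactions of Cdx1, Cdx2 and Cdx4. The interactions from day 2 to day 2.5 ran from -0.87 to -0.12, from -0.86 to -0.28 and from -6.60 to -0.34.

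With the line number as a replicate block, the paired fit gave 0.030 for Cdx2 in wt and 0.20 for Cdx1 in het from day 0 to day 2, both with the opposite sign and not called, and -0.34 for Cdx2 in het from day 2.5 to day 3, now called. It changed no other call of the 3 genes. In one fit of all 24 libraries Cdx2 was called in het from day 0 to day 2 (1.13). Without the filter on low counts Cdx2 (-0.30) and Cdx4 (0.41) were called in het from day 2.5 to day 3.

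Counts of genes called over the whole table moved more than the members did. Het against wt, they ran from 0 to 369 at day 0 (0 as reported), 0 to 384 at day 2 (85), 0 to 87 at day 2.5 (0) and 0 to 274 at day 3 (1), the highest each without the filter on low counts. DESeq2 called 84, 234, 3 and 116, and the block by line number, which pairs different lines here, 25, 97, 0 and 100. In wt they ran from 4152 to 8259 (6869), 2249 to 6158 (4519) and 29 to 4687 (2923) for the 3 steps in order, and in het from 6877 to 8957 (8582), 4855 to 7308 (6963) and 2386 to 5146 (4710). For the interactions they ran from 0 to 33 and from 0 to 23, both 0 as reported. Depth limits the Cdx values of day 0 and day 2, where no library had more than 55 counts of any of the 3.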
